A study of Mus musculus with 8 samples.

Results

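The genes described are 38 integrin subunits and focal adhesion proteins, chosen as a list of names and found by gene name among 26709 genes of a count table from EMT6 mammary tumours. Of the 38, 10 encode integrin alpha subunits, 6 encode integrin beta subunits and 22 encode proteins of the plaque that joins integrins to actin. RNA was sequenced from 4 tumours of mice given GrB-Fc-KS49 and 4 tumours of mice given IgG. GrB-Fc-KS49 fuses human granzyme B, a protease of cytotoxic lymphocytes, to a part that targets EMP2, a tetraspan membrane protein, and the treatment label of its samples reads Granzyme-B. Both groups were wild type Balb/c mice that carried tumours of EMT6, a syngeneic mouse mammary carcinoma line, and dosing took place 3 times in 10 days. IgG replicate 1 and GrB-Fc-KS49 replicate 3 carry a suffix U in their titles that the labels do not explain, and the age of the mice and the number of animals behind the tumours are likewise not stated there. The p-values therefore set group differences against the scatter of these tumours only. Total counts were 74.6 to 80.9 times 1000000 in GrB-Fc-KS49 tumours and 74.0 to 82.6 times 1000000 in IgG tumours, and all 38 genes passed the filter on low counts.

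Integrins are paired alpha and beta chains that span the membrane, bind matrix proteins such as fibronectin, laminin, collagen and vitronectin outside the cell, and recruit a plaque of proteins to their short tails inside it. Talins and kindlins bind the beta tail and switch the receptor on, vinculin, zyxin, alpha-actinins and filamin hold actin, and the kinases FAK and SRC signal through the docking proteins paxillin and p130Cas. EMP2, the target of the agent, has been reported to act together with beta 1 and alpha v beta 3 integrins and with the FAK and SRC kinases. Emp2 itself averaged 135 ± 29.7 CPM (counts per 1000000, after TMM scaling of the library sizes) in GrB-Fc-KS49 tumours and 135 ± 13.4 CPM across IgG tumours (SD, n = 4 each), and the groups overlapped.

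The treated tumours differed from each other in markers of other tissues, and the part of these in each result was not tested beyond the fits given. In order of replicate, 16 skeletal muscle markers summed to 3504, 440, 554 and 60.1 CPM after GrB-Fc-KS49 and to 61.3 to 310 CPM after IgG. Epidermal markers (13 genes) summed to 2342 CPM in GrB-Fc-KS49 replicate 2, to 28.9 to 41.1 CPM in the other 3 treated tumours and to 28.1 to 39.6 CPM across IgG tumours, and T cell markers (9 genes) to 5.69 to 61.9 CPM in GrB-Fc-KS49 tumours against 2.24 to 7.41 CPM across IgG tumours. Adipocyte markers (9 genes) summed to 465 CPM in GrB-Fc-KS49 replicate 3, to 68.0 to 149 CPM in the other treated tumours and to 47.7 to 88.1 CPM across IgG tumours. Markers of cycling cells (8 genes) summed to 894 to 1070 CPM in GrB-Fc-KS49 tumours and to 1080 to 1123 CPM in IgG tumours. Of these 8, 5 were lower and 1 higher at an unadjusted p under 0.05 by edgeR, against 17.8% and 17.3% of all genes. Their part in the results was not tested. Of the epidermal markers, Flg, Flg2, Dsg1a and Dsc1 were at 0 in at least 1 library, and none of the muscle or T cell markers was. Results are therefore also given without GrB-Fc-KS49 replicates 1 and 2, a choice made after the data were seen that keeps replicate 3. In whole tumours fewer cells of a type and less RNA per cell cannot be told apart. Epithelial markers differed widely in level. Krt8, an epithelial keratin, was at 391 to 631 CPM across GrB-Fc-KS49 tumours and 414 to 468 CPM across IgG tumours. Krt18 was at 47.8 to 109 and 37.3 to 68.5 CPM in these groups. Epcam was at 2.73 to 16 CPM across GrB-Fc-KS49 tumours and 3.19 to 4.46 CPM across IgG tumours. Cdh1 was at 6.22 to 36.9 and 4.05 to 9.07 CPM, and Esrp1 at 0.188 to 11.4 and 0.0828 to 0.395 CPM, in the same order.

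By edgeR's quasi-likelihood test with Benjamini-Hochberg adjustment over 19718 genes, 0 of the 38 passed an adjusted p under 0.05, a threshold that 0% of all genes passed, and the smallest adjusted p of any gene was 0.0619. The group mean was lower in GrB-Fc-KS49 tumours for 26 of the 38 (68.4%), against 46.8% of all genes tested. At an unadjusted p under 0.05, 15 of the 38 (39.5%) were lower, against 17.8% of all genes, and 0 were higher, against 17.3%. The 4 treated and 4 control tumours did not overlap in 8 of the 38 (21.1%), all lower, against 15.3% of all genes lower and 10.3% higher. The median log2 fold change of the 38 was -0.26, beside 0.03 over all genes tested. By role, 13 of the 22 plaque proteins and 2 of the 16 integrin subunits were lower at an unadjusted p under 0.05, and the medians were -0.33 and 0.02; the difference between these subsets was not tested.

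The call depended on the tool and on single tumours. DESeq2 called 10 of the 38 at an adjusted p under 0.05, all lower (26.3%, against 12.5% of all genes called lower), and limma-voom with sample weights called 3, all lower, against 4.16% of all genes. The 3 were Rsu1, Lims1 and Itgav. Without GrB-Fc-KS49 replicate 4, edgeR called 14 of the 38, all lower (36.8%, against 10.0% of all genes), and without replicate 1 it called 2, Rsu1 and Lims1, against 4.09%. Without replicates 1 and 2 together, 8 of the 38 (21.1%) were lower at an unadjusted p under 0.05, against 13.1% of all genes, 1 was higher (Itgb5), against 10.9%, and the median log2 fold change was -0.17. Of the 15 lower with all libraries, 7 were lower at that threshold here, namely Itgb1, Itgav, Ptk2, Arhgef7, Lims1, Rsu1 and Vcl.

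**Figure D1:**
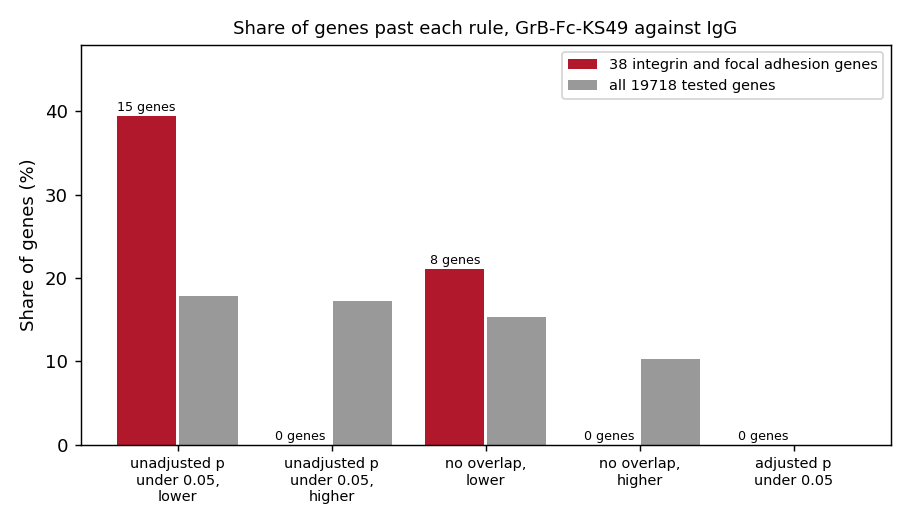
Share of the 38 genes (red) and of all 19718 tested genes (grey) past each rule, as a percentage on the vertical axis; the label gives the number of the 38. The red bar for genes lower at an unadjusted p under 0.05 stands at 39.5% against 17.8%, and the red bars for higher genes stand at 0.

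GrB-Fc-KS49 replicate 1 was the lowest of the 8 libraries in 21 of the 38 genes (55.3%), against 29.4% of all genes. Replicate 3 was lowest in 7 (18.4%, against 12.5% of all genes), replicate 2 in 2 (5.26%, against 7.87%) and replicate 4 in 0, against 6.37%. The spread, as the SD of log2(CPM + 1), was larger among GrB-Fc-KS49 tumours for 33 of the 38 genes (86.8%), against 80.8% of all genes tested. The 38 transcripts were long, with a median of 4564 bases against 3069 over 14486 tested genes with a known length, and abundant, with a median of 115 CPM against 11.4 CPM over all genes tested. Across those 14486 genes, Spearman's rho between transcript length and a library's level relative to the mean library was -0.42 to -0.07 in the GrB-Fc-KS49 libraries and 0.32 to 0.38 in the IgG libraries, over genes that are not independent. For GC content, rho was 0.07 to 0.22 in the GrB-Fc-KS49 libraries and -0.28 to -0.16 in the IgG libraries. Median GC content was 53.0% for the 38 and 50.3% for those 14486 genes. The part of these trends in the results was not tested beyond the following fit. With each library's trends with length and GC content removed, 13 of the 38 (34.2%) were lower at an unadjusted p under 0.05, against 18.0% of all genes covered, and 1 was higher (Itga9), against 7.16%. On the same genes without the removal, 14 of the 38 (36.8%) were lower, against 17.9%. Their median log2 fold change was -0.24 both with and without the removal on these genes, while that of all covered genes was -0.08 with it and 0.03 without it. Of the 15 genes lower in the reported fit, 10 were lower at that threshold with the trends removed. Itgb1, Tns3, Flna, Fermt2 and Vcl were not.

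**Figure D2:**
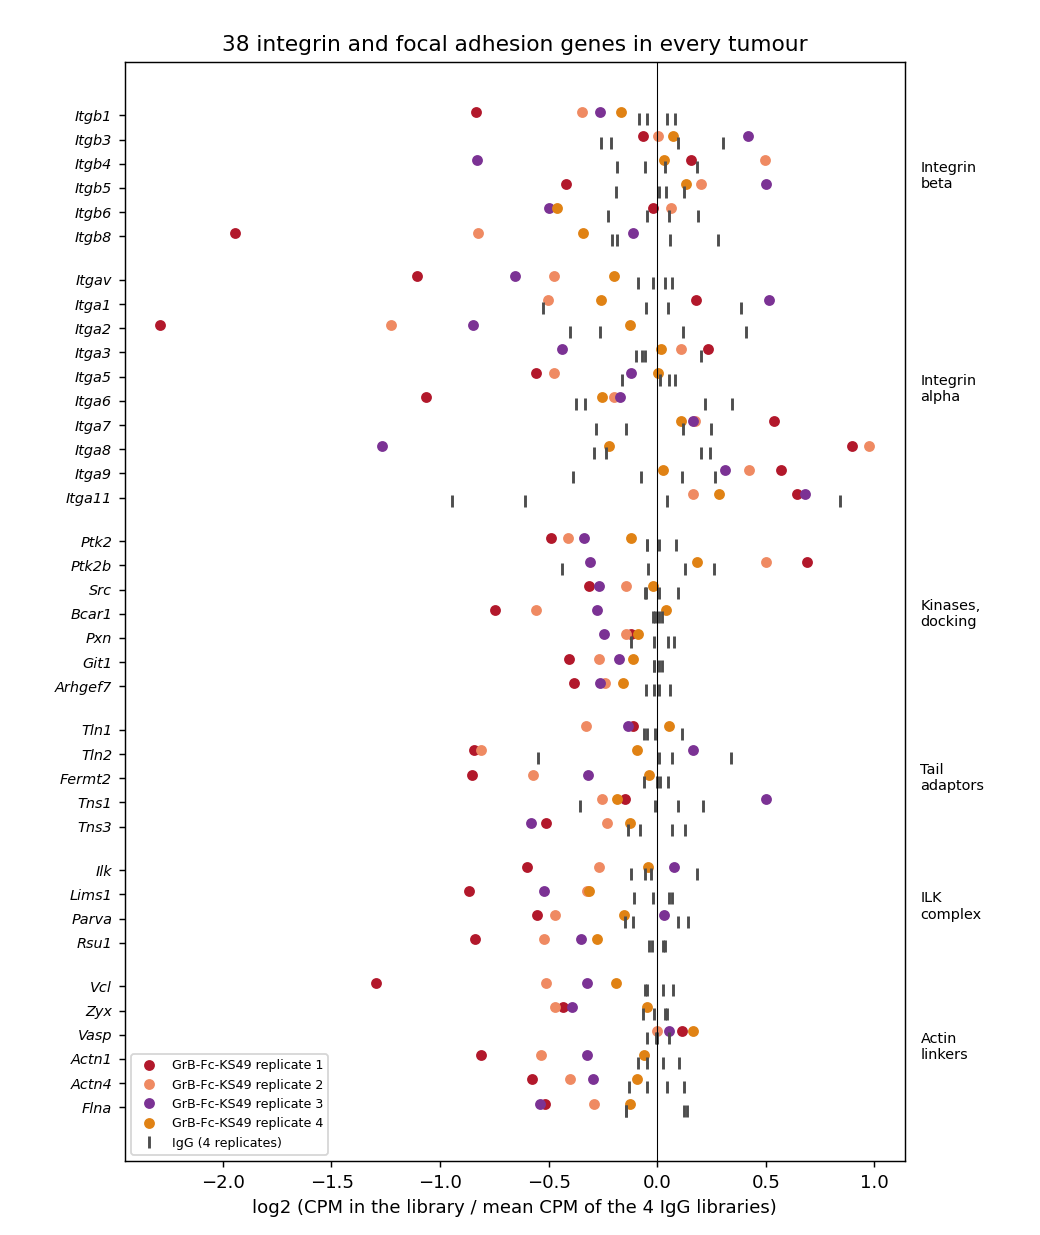
Each row is 1 gene; the horizontal axis is log2 of the CPM in a library over the mean of the 4 IgG libraries, with GrB-Fc-KS49 tumours as coloured points and IgG tumours as grey ticks. Replicate 1 is the leftmost point in most rows of the plaque proteins, and the integrin alpha rows scatter to both sides.

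Among the beta subunits, Itgb1 had the highest level per length of transcript. Itgb1 encodes the beta 1 chain, which pairs with most alpha chains of the list (ENSMUSG00000025809, chromosome 8, 129412135 to 129459681, plus strand, GRCm39). Its level was 817, 1146, 1214 and 1298 CPM across GrB-Fc-KS49 tumours, in order of replicate, and 1505, 1542, 1410 and 1374 CPM in IgG replicates 1 to 4. Every treated tumour lay below every control, with replicate 1 farthest below. The log2 fold change was -0.38 ± 0.14 (SE; adjusted p = 0.0917 by edgeR), and -0.21 without GrB-Fc-KS49 replicates 1 and 2. Per length of transcript, Itgb1 stood at 293 ± 55.2 CPM per kb in GrB-Fc-KS49 tumours and 382 ± 20.7 CPM per kb in IgG tumours (SD, n = 4 each).

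Itgb3, which pairs with the alpha v chain and in platelets with alpha IIb, was at 28.2, 29.6, 39.5 and 31.1 CPM across GrB-Fc-KS49 tumours and at 36.4, 31.6, 24.7 and 25.5 CPM across IgG tumours. The groups overlapped, and the log2 fold change was 0.12 ± 0.15 (SE; edgeR adjusted p = 0.599). Itgb5, a further partner of alpha v that binds vitronectin, averaged 247 ± 61.8 CPM across GrB-Fc-KS49 tumours and 224 ± 20.2 CPM across IgG tumours (SD, n = 4 each). Its highest and lowest levels, 317 and 167 CPM, were both in treated tumours, replicates 3 and 1. The log2 fold change of Itgb5 was 0.14 ± 0.17 (SE) with all libraries and -0.01 without replicate 3. It was 0.29 without replicate 1 and 0.34 without replicates 1 and 2. Replicate 3 was the tumour with the highest adipocyte markers, and their part in the Itgb5 level was not tested. Itgb8, whose product with alpha v activates latent TGF-beta, was at 6.69 to 23.8 CPM in GrB-Fc-KS49 tumours against 22.3 to 31.2 CPM across IgG tumours, with a log2 fold change of -0.66 ± 0.34 (SE; edgeR adjusted p = 0.202), and -0.21 without replicates 1 and 2. Itgb6, a beta chain of epithelia, was near the low end at 1.36 ± 0.274 CPM in treated and 1.57 ± 0.185 CPM across IgG tumours.

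Itgb4 encodes the beta 4 chain, which anchors basal epithelial cells to laminin in hemidesmosomes. It was at 82.9, 105, 41.9 and 76.1 CPM across GrB-Fc-KS49 tumours and at 65.6 to 84.5 CPM across IgG tumours. The highest level was in GrB-Fc-KS49 replicate 2, the tumour whose epidermal markers summed to 2342 CPM, and where Krt5, a basal keratin, was at 202 CPM; the part of that tissue in the Itgb4 level was not tested. Without replicate 2 the log2 fold change of Itgb4 was -0.14, and with it 0.04.

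Of the alpha subunits, Itgav was the one whose groups did not overlap. Itgav encodes alpha v, the chain of the vitronectin receptors (ENSMUSG00000027087, chromosome 2, 83554741 to 83637260, plus strand). It was at 60.3, 93.2, 82.4 and 113 CPM across GrB-Fc-KS49 tumours and at 128, 136, 133 and 122 CPM across IgG tumours. All 4 treated tumours were lower than all 4 controls, by a log2 fold change of -0.57 ± 0.17 (SE; edgeR adjusted p = 0.0654, DESeq2 adjusted p = 0.0157). It was -0.40 without GrB-Fc-KS49 replicates 1 and 2 and -0.35 with the length and GC trends removed. Among the beta partners of alpha v in the list, the log2 fold change was -0.38 for Itgb1, 0.12 for Itgb3, 0.14 for Itgb5, -0.21 for Itgb6 and -0.66 for Itgb8.

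Itga5, the alpha chain of the main fibronectin receptor, was at 186, 197, 252 and 275 CPM across GrB-Fc-KS49 tumours and at 290, 285, 245 and 277 CPM across IgG tumours. Replicates 1 and 2 lay below the controls and replicates 3 and 4 among them (log2 fold change -0.27, SE 0.13, edgeR adjusted p = 0.179), and without replicates 1 and 2 the log2 fold change was -0.05. Its ligand gene Fn1, which encodes fibronectin, was at 1560, 2375, 2528 and 3289 CPM across GrB-Fc-KS49 tumours and at 3707 to 3959 CPM across IgG tumours, with no overlap. Itga6, an alpha chain of laminin receptors, was at 41.4, 75.6, 76.9 and 72.6 CPM across GrB-Fc-KS49 tumours and at 101, 110, 68.8 and 67.0 CPM across IgG tumours, where the groups overlapped. Itga3, a further laminin receptor chain, averaged 183 ± 34.5 CPM across GrB-Fc-KS49 tumours and 183 ± 18.5 CPM across IgG tumours (SD, n = 4 each), a log2 fold change of 0.00 ± 0.14 (SE).

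The collagen receptor chains had low levels per length of transcript. Itga2 had the lowest log2 fold change of the 38, -0.92 ± 0.41 (SE; edgeR adjusted p = 0.145), at 4.60, 9.60, 12.5 and 20.6 CPM across GrB-Fc-KS49 tumours and 24.4, 29.8, 18.7 and 17.0 CPM across IgG tumours. Only replicate 4 among the treated tumours reached the control range. Without replicates 1 and 2 its log2 fold change was -0.42. Itga1 averaged 19.0 ± 5.98 CPM in GrB-Fc-KS49 and 18.5 ± 4.63 CPM across IgG tumours, and Itga11, a fibroblast collagen receptor chain, 1.72 ± 0.304 CPM across GrB-Fc-KS49 tumours and 1.25 ± 0.713 CPM across IgG tumours. Itga9, a receptor chain for tenascin and VCAM1, had a log2 fold change of 0.34 ± 0.16 (SE; edgeR adjusted p = 0.159), with 23.4 ± 3.61 CPM in GrB-Fc-KS49 and 18.4 ± 3.45 CPM across IgG tumours. Itga7, the laminin receptor chain of muscle, reached its highest level, 17.5 CPM, in GrB-Fc-KS49 replicate 1, the tumour with 3504 CPM of muscle markers, and was at 13.0 to 13.6 CPM in the other treated tumours against 9.91 to 14.3 CPM across IgG tumours. Whether that muscle RNA accounts for the level was not tested. Itga8 lay between 0.523 and 2.48 CPM across GrB-Fc-KS49 tumours and between 1.03 and 1.49 CPM across IgG tumours.

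Per length of transcript the integrin subunits spanned a wide range. In GrB-Fc-KS49 tumours Itgb1, at 293 CPM per kb, was followed by Itgb5 at 75.1 ± 18.8, Itga5 at 51.9 ± 9.73 and Itga3 at 37.6 ± 7.10 CPM per kb, and in IgG tumours the same 3 genes stood at 68.1 ± 6.14, 62.6 ± 4.65 and 37.6 ± 3.80 CPM per kb. Itga6, Itgav and Itgb4 came next in GrB-Fc-KS49 tumours, at 15.5 ± 3.92, 12.4 ± 3.11 and 12.3 ± 4.20 CPM per kb, and did not differ from each other beyond their SD. Itgb3 was at 5.55 ± 0.871 CPM per kb in GrB-Fc-KS49 and 5.11 ± 0.954 CPM per kb in IgG tumours. At the low end Itga11, Itgb6 and Itga8 lay between 0.277 and 0.345 CPM per kb in GrB-Fc-KS49 tumours and between 0.217 and 0.327 CPM per kb in IgG tumours.

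Among the kinases and docking proteins, 6 of 7 had a lower mean in GrB-Fc-KS49 tumours, against 46.8% of all genes, and 4 were lower at an unadjusted p under 0.05 (57.1%, against 17.8% of all genes). Ptk2 encodes FAK, the kinase that is activated when integrins cluster (ENSMUSG00000022607, chromosome 15, 73076951 to 73295129, minus strand). It was at 106, 112, 118 and 137 CPM across GrB-Fc-KS49 tumours and at 158, 144, 150 and 144 CPM across IgG tumours. The groups did not overlap, and the log2 fold change was -0.33 ± 0.09 (SE; edgeR adjusted p = 0.0621, DESeq2 adjusted p = 0.0128). Without replicates 1 and 2 it was -0.21, and -0.22 with the length and GC trends removed. Ptk2b, which encodes the related kinase PYK2 that is prominent in leukocytes, was at 100, 87.7, 50 and 70.4 CPM across GrB-Fc-KS49 tumours and at 45.7, 60.2, 74.3 and 67.8 CPM across IgG tumours. It was highest in replicates 1 and 2, which also had the highest summed T cell markers, at 61.9 and 34.2 CPM, and highest summed myeloid markers, at 4206 and 3490 CPM. Its log2 fold change was 0.31 ± 0.22 (SE; edgeR adjusted p = 0.339), and -0.03 without replicates 1 and 2. Replicate 1 also had the highest muscle markers and replicate 2 the highest epidermal markers. The part of leukocytes in the Ptk2b level was not tested.

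Src, the kinase that partners FAK, was at 79.0, 89.0, 81.6 and 97.2 CPM across GrB-Fc-KS49 tumours and at 94.7, 98.8, 105 and 95 CPM across IgG tumours. Replicate 4 lay within the control range and the other 3 below it (log2 fold change -0.18, SE 0.08, edgeR adjusted p = 0.145). Bcar1, which encodes the FAK and SRC substrate p130Cas, averaged 107 ± 26.1 CPM across GrB-Fc-KS49 tumours and 137 ± 2.17 CPM across IgG tumours (SD, n = 4 each), and replicate 4, at 141 CPM, was the highest of all 8. Its log2 fold change was -0.36 with all libraries and -0.10 without replicates 1 and 2. Pxn, which encodes the scaffold paxillin, averaged 167 ± 7.98 CPM across GrB-Fc-KS49 tumours and 185 ± 11 CPM across IgG tumours.

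Git1 and Arhgef7 encode 2 partners of 1 complex, GIT1 and beta-PIX, which binds paxillin and activates RAC. Git1 was at 72.9, 80.4, 85.5 and 89.5 CPM across GrB-Fc-KS49 tumours and at 97.4, 95.6, 98.1 and 95.8 CPM across IgG tumours. Arhgef7 was at 70.4, 77.8, 76.4 and 82.2 CPM across GrB-Fc-KS49 tumours and at 90.8, 95.7, 92.2 and 88.5 CPM across IgG tumours. Neither gene overlapped between the groups, and both differences were small, with log2 fold changes of -0.24 (SE 0.07, edgeR adjusted p = 0.0718) and -0.26 (SE 0.07, edgeR adjusted p = 0.0619). They were -0.13 and -0.20 without replicates 1 and 2.

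**Figure D3:**
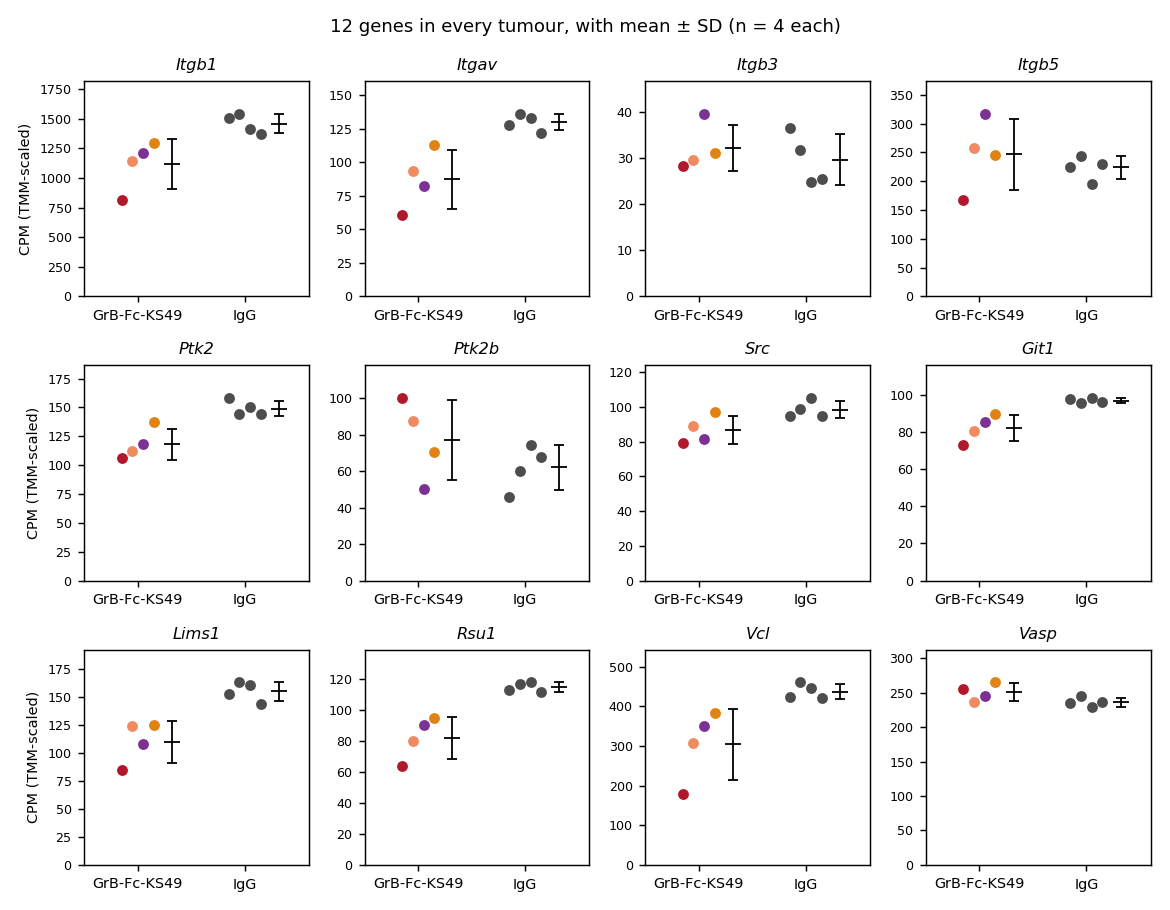
CPM (vertical axes, from 0) of 12 genes in each GrB-Fc-KS49 tumour (coloured, replicates 1 to 4 from left to right) and each IgG tumour (grey), with the mean ± SD as black bars. Itgb1, Itgav, Ptk2, Git1, Lims1, Rsu1 and Vcl show no overlap, while Itgb3, Itgb5, Ptk2b, Src and Vasp overlap.

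Of the 5 proteins that bind integrin tails, 4 had a lower mean in GrB-Fc-KS49 tumours, against 46.8% of all genes, and 2 were lower at an unadjusted p under 0.05, against 17.8%. Tln1, which encodes talin 1, the ubiquitous activator, was at 309, 266, 304 and 346 CPM across GrB-Fc-KS49 tumours and at 320, 361, 323 and 331 CPM across IgG tumours, where the groups overlapped. Tln2, its paralogue of muscle and brain, was at 33.1, 33.9, 66.7 and 55.7 CPM across GrB-Fc-KS49 tumours and at 75.2, 62.3, 40.6 and 59.8 CPM across IgG tumours, also with overlap. Tns3, which encodes tensin 3, was at 166, 202, 158 and 217 CPM across GrB-Fc-KS49 tumours and at 216, 248, 259 and 224 CPM across IgG tumours, with only replicate 4 in the control range (log2 fold change -0.35, SE 0.12, edgeR adjusted p = 0.0805). Tns1 was at 45.2, 42.0, 71.0 and 44.1 CPM across GrB-Fc-KS49 tumours and at 57.9, 49.8, 39.2 and 53.5 CPM across IgG tumours. Its log2 fold change was 0.01 ± 0.19 (SE) and was -0.20 without replicate 3. Fermt2, which encodes kindlin 2, the co-activator of talin, was at 95.5, 116, 138 and 168 CPM across GrB-Fc-KS49 tumours and at 165 to 178 CPM across IgG tumours (log2 fold change -0.41, SE 0.15, edgeR adjusted p = 0.101), and -0.16 without replicates 1 and 2.

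The ILK complex joins beta tails to actin. All 4 of its genes among the 38 had a lower mean in GrB-Fc-KS49 tumours, against 46.8% of all genes. They held the 2 smallest unadjusted p-values of the 38. Of the related genes Parvb, Parvg and Lims2, which are outside the 38, Parvg was higher at an unadjusted p under 0.05. Parvb and Lims2 were neither lower nor higher at that threshold. Rsu1 encodes a leucine-rich partner of PINCH1 (ENSMUSG00000026727, chromosome 2, 13081632 to 13276226, minus strand). It was at 64.2, 80, 90.2 and 94.8 CPM across GrB-Fc-KS49 tumours and at 113, 117, 118 and 112 CPM across IgG tumours. Lims1, which encodes PINCH1 itself (ENSMUSG00000019920, chromosome 10, 58159288 to 58260513, plus strand), was at 85.0, 124, 108 and 125 CPM across GrB-Fc-KS49 tumours and at 153, 163, 161 and 144 CPM across IgG tumours. In both genes every treated tumour was below every control. The log2 fold change of Rsu1 was -0.48 ± 0.12 (SE), and that of Lims1 -0.49 ± 0.12 (SE; edgeR adjusted p = 0.0619 each; DESeq2 adjusted p = 0.00631 and 0.00775). Without replicates 1 and 2 they were -0.30 and -0.40, and with the length and GC trends removed -0.63 and -0.33. The kinase-like scaffold gene Ilk averaged 192 ± 37.5 CPM across GrB-Fc-KS49 tumours and 218 ± 20.4 CPM across IgG tumours, and Parva, which encodes alpha-parvin, 206 ± 39.8 CPM across GrB-Fc-KS49 tumours and 248 ± 25.1 CPM across IgG tumours (SD, n = 4 each). Both overlapped, with log2 fold changes of -0.18 and -0.27.

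The actin linkers were lower in 5 of 6, each at an unadjusted p under 0.05 (83.3%, against 17.8% of all genes). Vcl encodes vinculin, which reinforces the talin to actin link under tension (ENSMUSG00000021823, chromosome 14, 20979466 to 21083744, plus strand). It was at 178, 307, 350 and 383 CPM across GrB-Fc-KS49 tumours and at 423, 460, 445 and 421 CPM across IgG tumours. No treated tumour reached the controls, and replicate 1 was far below the other 3. The log2 fold change was -0.52 ± 0.21 (SE; edgeR adjusted p = 0.113), and -0.24 without replicates 1 and 2. Zyx, which encodes the tension-sensing protein zyxin, was at 295, 287, 303 and 385 CPM across GrB-Fc-KS49 tumours and at 380, 408, 410 and 394 CPM across IgG tumours, with replicate 4 alone reaching the controls (log2 fold change -0.33, SE 0.10, edgeR adjusted p = 0.0701; -0.20 without replicates 1 and 2).

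The alpha-actinins crosslink actin filaments. Actn1 was at 318, 384, 446 and 535 CPM across GrB-Fc-KS49 tumours and at 540, 598, 567 and 524 CPM across IgG tumours, and Actn4 at 278, 314, 338 and 388 CPM across GrB-Fc-KS49 tumours and at 427, 451, 401 and 379 CPM across IgG tumours. Replicate 4 reached the control range in both. Their log2 fold changes were -0.41 (SE 0.15) and -0.33 (SE 0.11), with edgeR adjusted p of 0.0949 and 0.0787, and without replicates 1 and 2 they were -0.17 and -0.18. Flna, which encodes the actin crosslinker filamin A, was at 1254, 1470, 1237 and 1648 CPM across GrB-Fc-KS49 tumours and at 1626, 1624, 1977 and 1958 CPM across IgG tumours (log2 fold change -0.36, SE 0.12, edgeR adjusted p = 0.0821). Here replicates 1 and 3 were the lowest. Vasp, which speeds actin filament growth, was the linker that was not lower, at 251 ± 12.6 CPM across GrB-Fc-KS49 tumours and 236 ± 6.74 CPM across IgG tumours (log2 fold change 0.09, SE 0.06, edgeR adjusted p = 0.349). With the length and GC trends removed its log2 fold change was -0.15.

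**Figure D4:**
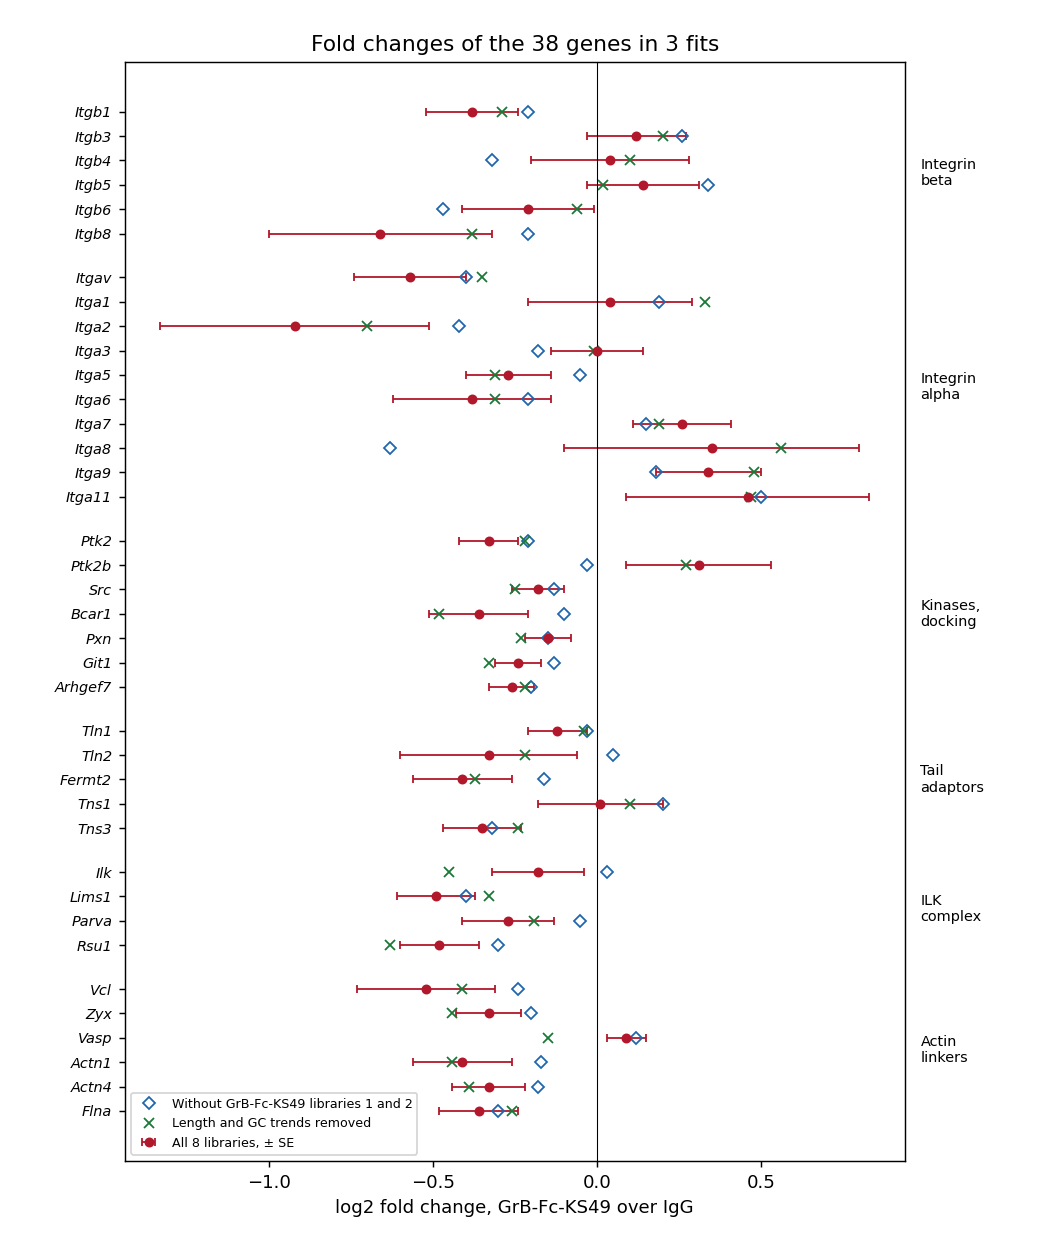
log2 fold change of GrB-Fc-KS49 over IgG (horizontal axis) for each gene, with red points and standard errors for all 8 libraries, blue diamonds without GrB-Fc-KS49 libraries 1 and 2, and green crosses with the length and GC trends removed. The plaque proteins sit mostly between -0.52 and 0, and many diamonds lie nearer to 0 than the red points.

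Promoter sequences are shown because vinculin is a textbook target of serum response factor, which binds the CArG box, and because Vcl, Fermt2 and Rsu1 share that motif and were all lower in the treated mean. They come from RefSeq on GRCm38.p6 (a different build from the count table), run 5′ to 3′ on the gene's strand from 250 bases before to 50 bases after the start, and carry the CArG box in capitals. The windows are chr14:20929148-20929447 for Vcl (plus strand), chr14:45530016-45530315 for Fermt2 (minus strand) and chr2:13271366-13271665 for Rsu1 (minus strand).
Vcl: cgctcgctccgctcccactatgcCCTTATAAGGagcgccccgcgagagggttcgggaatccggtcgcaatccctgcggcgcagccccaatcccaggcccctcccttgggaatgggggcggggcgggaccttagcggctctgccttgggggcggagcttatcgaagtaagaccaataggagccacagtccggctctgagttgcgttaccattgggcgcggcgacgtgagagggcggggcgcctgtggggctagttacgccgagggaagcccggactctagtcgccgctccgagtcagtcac
Fermt2: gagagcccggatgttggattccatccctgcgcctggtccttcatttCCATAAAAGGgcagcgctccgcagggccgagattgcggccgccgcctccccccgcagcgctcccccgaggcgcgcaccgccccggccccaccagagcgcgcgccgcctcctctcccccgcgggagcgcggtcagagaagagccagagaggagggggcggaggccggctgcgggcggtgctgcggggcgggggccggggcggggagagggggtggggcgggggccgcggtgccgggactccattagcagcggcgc
Rsu1: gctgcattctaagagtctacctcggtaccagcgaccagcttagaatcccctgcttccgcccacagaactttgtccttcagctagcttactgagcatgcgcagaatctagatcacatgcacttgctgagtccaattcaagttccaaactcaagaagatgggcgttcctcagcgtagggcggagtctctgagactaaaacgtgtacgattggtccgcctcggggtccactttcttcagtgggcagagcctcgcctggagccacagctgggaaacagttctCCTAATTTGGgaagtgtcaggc
The box ended 218 bases before the start in Vcl and 195 before it in Fermt2, and 37 bases after it in Rsu1. Of the 29 genes of the 38 with a promoter in the table, 4 held a CArG box on either strand (13.8%; Itgb6 was the other), against 1.81% of 27025 genes. The TEAD motif GGAATG, also on either strand, was held by 4 of the 29 (13.8%; Actn4, Flna, Itgb1 and Vcl), against 16.6% of all genes, and the AP-1 motif TGANTCA by 4 (13.8%; Actn4, Itga3, Itga9 and Zyx), against 8.97%. The 3 motifs overlapped each other in 0 of the 38 windows of these 29 genes. A match is a description of letters in the window and not a binding site, and its share was not tested.

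Ratios of 2 genes within a library do not depend on library scaling, and 6 were compared. Ptk2b over Ptk2 was 0.946, 0.786, 0.424 and 0.513 in GrB-Fc-KS49 tumours and 0.290, 0.418, 0.496 and 0.472 in IgG tumours, high in replicates 1 and 2 (exact 2-sided permutation p = 0.114, adjusted p = 0.343). Itgb3 over Itgb1 was 0.0346, 0.0259, 0.0325 and 0.0240 in GrB-Fc-KS49 tumours and 0.0242, 0.0205, 0.0175 and 0.0185 in IgG tumours. The groups met at replicate 4 and IgG replicate 1, and the log2 difference of 0.53 had an exact permutation p of 0.0571 (adjusted p = 0.343). The smallest p that 4 against 4 tumours can give in this 2-sided test is 0.0286. Tln2 over Tln1, Actn4 over Actn1, Tns3 over Tns1 and Itga6 over Itga5 overlapped between the groups, with log2 differences of -0.23, 0.09, -0.35 and -0.10 and exact permutation adjusted p of 0.457 to 0.629. Tns3 over Tns1 was at -0.10 without GrB-Fc-KS49 replicate 3 and -0.19 without IgG replicate 3, and Tln2 over Tln1 at -0.08 without GrB-Fc-KS49 replicate 1 and -0.09 without IgG replicate 1.

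Other genes of the pathway, from lists that exclude the 38, were counted in the same way. Of 43 further plaque proteins tested, 16 (37.2%, against 17.8% of all genes) were lower and 3 (6.98%, against 17.3%) higher at an unadjusted p under 0.05 (median log2 fold change -0.16; the 3 were Parvg, Sharpin and Itgb1bp1, named after their values were seen), with 0 past the adjusted threshold, as in every list that follows. Enah, an actin regulator related to Vasp, was at 92.1 ± 8.56 CPM across GrB-Fc-KS49 tumours and 117 ± 5.90 CPM across IgG tumours (SD, n = 4 each), and Crk, the adaptor that reads p130Cas, at 105 ± 15.9 CPM across GrB-Fc-KS49 tumours and 145 ± 8.40 CPM across IgG tumours. Ppfibp1 was at 162 ± 40.8 CPM across GrB-Fc-KS49 tumours and 253 ± 6.83 CPM across IgG tumours. These 3 did not overlap between the groups and had edgeR adjusted p of 0.0619 to 0.0621, but with the length and GC trends removed the log2 fold change of Enah was -0.10 against -0.35 before.

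Of 13 adhesion kinases and phosphatases, 6 were lower (46.2%, against 17.8% of all genes) and 0 higher, against 17.3%, at an unadjusted p under 0.05. Yes1, a SRC family kinase, was at 25.4 ± 5.54 CPM across GrB-Fc-KS49 tumours and 39.2 ± 2.18 CPM across IgG tumours, and Abl1, Abl2 and Ptpn12, a phosphatase of p130Cas, had log2 fold changes of -0.44, -0.46 and -0.41. Among 20 factors and targets of SRF and YAP, 7 were lower (35%, against 17.8% of all genes) and 0 higher, against 17.3%, at the same threshold. The 7, named after their values were seen, were Srf, Mrtfa, Mrtfb, Wwtr1, Tead1, Amotl2 and Lats2. Yap1, Ccn1, Ccn2, Ankrd1, Axl, Acta2, Tagln, Tagln2, Cnn1, Cnn2, Egr1, Fos and Fhl2 did not pass that threshold. Tead1, which YAP needs to bind DNA, was at 134 ± 39.9 CPM across GrB-Fc-KS49 tumours and 211 ± 14.6 CPM across IgG tumours, and Srf at 75.9 ± 7.32 CPM across GrB-Fc-KS49 tumours and 89.0 ± 3.15 CPM across IgG tumours. The log2 fold change of Tead1 was -0.66 with all libraries and -0.34 without replicates 1 and 2. Mrtfb, an SRF cofactor, and Lats2, a kinase that restrains YAP, had log2 fold changes of -0.44 and -0.54. Of 24 actin and contractility genes, 4 were lower and 3 higher (Myl12b, Tpm2 and Pfn1, named after their values were seen) at that threshold. These shares of 16.7% and 12.5% did not exceed the 17.8% and 17.3% of all genes. Rock2, Wasl, Diaph3 and Limk1 had log2 fold changes of -0.34, -0.45, -0.38 and -0.36, and -0.06 for Rock2 with the trends removed.

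Of 27 integrin ligands 2 were lower (7.41%) and 1 higher (3.70%) at an unadjusted p under 0.05, both below the 17.8% and 17.3% of all genes. Fn1 had a log2 fold change of -0.64 (SE 0.19, edgeR adjusted p = 0.0668), Lamb1, a laminin chain, -0.44, Tgfb1 0.17 and Vtn, which encodes vitronectin, 1.87 with 4.02 CPM in GrB-Fc-KS49 replicate 1 and 0.385 to 1.67 CPM in the other treated tumours against 0.166 to 0.967 CPM across IgG tumours. Among EMP2 and 5 tetraspan or caveolar genes tested, 1 was lower (16.7%, against 17.8% of all genes) at an unadjusted p under 0.05. At that threshold 2 were higher (33.3%, against 17.3%). The lower gene was Cav1, at 541 ± 62.3 CPM across GrB-Fc-KS49 tumours and 674 ± 18.9 CPM across IgG tumours. The higher genes were Cd63 and Cd81, with log2 fold changes of 0.25 and 0.21, and Cd151 was at 0.15. With the trends removed these 3 were at -0.10, -0.09 and -0.13, and Tgfb1 was at -0.06. Fn1 was at -0.38 and Lamb1 at -0.16 without replicates 1 and 2.

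The 9 remaining integrin subunits tested had 1 higher (Itgae, named after its values were seen) and 0 lower at an unadjusted p under 0.05, against 17.3% and 17.8% of all genes, and a median log2 fold change of 0.25. Itgal, the lymphocyte alpha L chain, was at 41.7, 30.0, 5.83 and 16 CPM across GrB-Fc-KS49 tumours and at 5.42, 11, 15 and 10.5 CPM across IgG tumours. Itgb7, of gut-homing lymphocytes, was at 144, 68.2, 13.7 and 21.0 CPM across GrB-Fc-KS49 tumours and at 14.9, 18.3, 43.4 and 20.4 CPM across IgG tumours. Itgax, of dendritic cells, had a log2 fold change of 0.95, Itga2b, the platelet chain, 0.25 and Itgb2, the shared leukocyte beta chain, 0.21. Replicates 1 and 2 were highest in Itgal, Itgb7, Itgax and Itgb2, and without them the log2 fold changes of these 4 were 0.07, -0.47, -0.02 and -0.55.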

How the data were processed

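RNA from 8 EMT6 tumours was made into stranded mRNA libraries, per the labels' protocols. The files deposited by the authors hold estimated counts for each gene and CPM, which checked as the deposited counts over their library total; per the submitters' processing notes the tools were bcl2fastq 2.19.1.403 and STAR with build GRCm39. The STAR version, the program that gave the estimated counts, the annotation and the use of strand are not stated in these sources, so overlapping and antisense genes cannot be told apart. Counts were first rounded to whole numbers. The genes kept by edgeR's filterByExpr (19718 of 26709) were fitted with edgeR 4.0.16 (R 4.3.3) and TMM scaling. Treatment was tested by robust quasi-likelihood tests, with Benjamini-Hochberg adjustment over all genes tested. The fit was tried on simulated counts with the same dispersion in every gene and group and no length or GC trend. The tumours had unequal spread and such trends, so that trial does not cover them. Printed CPM are TMM-scaled. DESeq2 1.42.0, limma 3.58.1, other scalings, filters, pseudocounts of 1 and 0.25 CPM, omitted libraries and removal of library trends with length and GC content (mgcv 1.9.3) were alternatives. The 6 ratios between genes were tested by exact permutation. Transcript lengths came from GENCODE M21 by gene ID, and promoters from RefSeq on GRCm38.p6.

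The 38 genes and all lists were chosen with earlier results of these data known. Values in every tumour are given for Itgav, Itgb1, Itgb3, Ptk2 and Src, for the 12 genes with the smallest unadjusted p and for the genes in the ratios; any gene at 4 times its median would have been added. From each pathway list up to 4 genes with the smallest p at a mean of at least 1 CPM are named, with Emp2, Fn1 and Itgb2; 1 gene that this rule names is not reported here. Tumour-by-tumour values of Vcl, Fermt2, Itga2, Itgb4 and the leukocyte integrins, and the promoters shown, were chosen after their values were seen. Totals of 74.0 to 82.6 times 1000000 counts per library limit counting error, and the precision is set by 4 tumours in each group.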

Additional observations from a re-analysis of the deposited data

Results flagged for a closer look

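In 76 groups of 4 tumours (38 genes in each group), the highest or lowest tumour was set against the other 3 by Dixon's rule, which chance meets in about 1 in 20 groups, or 3.80 of 76. It was met in 5. Itga6 had 41.4 CPM in GrB-Fc-KS49 replicate 1, below the other 3 treated tumours at 72.6 to 76.9 CPM. Itga7 had 17.5 CPM in the same replicate, above the others at 13.0 to 13.6 CPM. Tns1 had 71.0 CPM in GrB-Fc-KS49 replicate 3, above the others at 42.0 to 45.2 CPM. Zyx had 385 CPM in GrB-Fc-KS49 replicate 4, above the others at 287 to 303 CPM. Itga3 had 210 CPM in IgG replicate 3, above the other IgG tumours, of which none passed 176 CPM.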

How the results depend on the processing

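Of 836 fits of single genes in 22 other settings, 27 turned direction, in 9 of the 38 genes, 29 passed the adjusted threshold where the reported fit did not, and 780 did neither. Itga3, reported at 0.00, has no direction to turn and lay at -0.18 without GrB-Fc-KS49 replicates 1 and 2 and at 0.12 without replicate 3. The cause was not tested. Genes called at an adjusted p under 0.05 numbered 0 of 19718 in edgeR, 4708 in DESeq2, 1 in limma-voom and 1291 in limma-voom with sample weights. Of the 38, DESeq2 called 10 (26.3%) and sample weights 3 (7.89%), all lower. The shares of all genes called lower were 12.5% and 4.16%. At an adjusted p under 0.1, edgeR called 12 of the 38, beside 4952 of all 19718 genes. Without GrB-Fc-KS49 replicates 1 and 2, 8 of the 38 were lower and 1 higher at an unadjusted p under 0.05. The shares of all genes were 13.1% and 10.9%. In that setting 9 were lower and 1 higher without overlap, with no share of all genes counted, and the median log2 fold change was -0.17. Of the 38, those higher at an unadjusted p under 0.05 numbered 2 with upper quartile scaling, against 21.6% of all genes. They numbered 1 with a filter at 1 CPM in 4 libraries (against 19.4%), 1 with limma on log2(CPM + 0.25) (against 16.2%) and 1 with the suffix as covariate (against 17.5%). They numbered 3 without both U libraries (against 13.9%) and 1 with length and GC trends removed (against 7.16%). Without both U libraries 12 were lower and 1 higher without overlap, with no share of all genes counted. Upper quartile scaling moved the median of all genes to 0.09 and that of the 38 to -0.20.

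Leaving a library out cannot create an overlap, so counts without overlap could not fall below those with all libraries. Of all genes, 11.4% to 18.9% were lower and 12.1% to 20.1% higher at an unadjusted p under 0.05 when 1 library was left out. Leaving out 1 library at a time gave 0 to 3447 calls over all genes and 0 to 14 among the 38. Of the 38, 8 to 19 were lower and 0 to 2 higher at an unadjusted p under 0.05. Without overlap, 8 to 18 were lower and 0 to 1 higher. The share of all genes without overlap was not counted for these omissions, so these counts are not read as a result. The median of the 38 was -0.30 to -0.19. The same omissions gave log2 fold changes of -0.14 to 0.24 for Itgb4, -0.01 to 0.29 for Itgb5, -0.17 to 0.21 for Itga1 and -0.20 to 0.11 for Tns1. They gave -0.24 to 0.02 for Itga6 over Itga5, -0.49 to -0.10 for Tns3 over Tns1 and -0.42 to -0.08 for Tln2 over Tln1.

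Turned values were, for Itgb4, -0.03 in limma-voom, -0.01 with sample weights and with pseudocounts of 1 and 0.25, -0.02 with the suffix as covariate and -0.32 without replicates 1 and 2. Tns1 was -0.01 with no filter and in limma-voom, -0.03 with sample weights, -0.12 without both U libraries and -0.02 with the suffix as covariate. Itga1 was -0.07 with sample weights and -0.01 without both U libraries. Without replicates 1 and 2, Itga8 was -0.63, Ptk2b -0.03, Tln2 0.05, Ilk 0.03 and Tln2 over Tln1 0.11. Vasp was -0.15 with trends removed. No paired analysis was possible because the labels give no replicate number shared between the groups.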
